A study of Homo sapiens with 18 samples.

Results

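Depletion of BRM in cells that still contained Hic-5 was followed by comparing 2 lists of glucocorticoid receptor (GR) binding regions (GBR). ChIP-seq for GR was carried out in U2OS-GRα cells, a human osteosarcoma line made to express GRα stably, after 48 h with siRNA and 1 h with dex, a synthetic glucocorticoid, at 100 nM. The control condition received only non-specific siRNA (siNS/siNS), and the depleted condition received siRNA against BRM with non-specific siRNA (siBRM/siNS), so Hic-5 and CHD9 were not targeted in either. Each list was called on the pooled reads of 2 replicates prepared on different days, and the lists of the other 4 siRNA combinations served only for comparison. A siNS/siNS peak was called lost where no siBRM/siNS peak overlapped it by at least 1 bp, and kept otherwise. A siBRM/siNS peak that overlapped no siNS/siNS peak was called new.

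The siNS/siNS list held 2582 GBR and the siBRM/siNS list 1278, of 20642 peaks over all 6 lists. Of the 2582 siNS/siNS GBR, 1348 were lost, which is 52.2% (95% Wilson interval 50.3 to 54.1), and 1234 were kept. Of the 1278 siBRM/siNS GBR, 40 were new, which is 3.13% (2.31 to 4.23), and 1238 overlapped a siNS/siNS peak. So 1348 GBR left the list and 40 entered it, an imbalance that largely follows from the list lengths of 2582 and 1278. These intervals cover counting error only, because 1 pooled list per condition leaves no spread between replicates to set the difference against. BRM mRNA and protein are not among the values in the lists, so the depletion itself was not checked here. Read depth is not given in the lists either, and it acts on which weak peaks are called. Where the siNS/siNS list was cut to its 1278 strongest GBR, so that both lists had the same length, 260 (20.3%) were lost and 256 (20.0%) were new. Equal lengths make these 2 counts close to equal.

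GR is a nuclear receptor that enters the nucleus when it binds a glucocorticoid and attaches to DNA mainly at glucocorticoid response elements (GRE), imperfect palindromes of the hexamers AGAACA and TGTTCT with a short spacer. BRM, encoded by SMARCA2, is one of the alternative ATPases of the SWI/SNF complex, which slides or evicts nucleosomes and is known to help GR reach sites in closed chromatin. Hic-5, encoded by TGFB1I1, is a focal adhesion and nuclear protein that acts as a coregulator of GR, and CHD9 is a remodeler of another family.

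The sequences at the strongest lost GBR are shown first because they let the element under a GBR be read beside its loss. Each is the GRCh38 plus strand over 120 bases centered on the peak summit, named by the nearest protein-coding gene, and capitals mark the bases of a GRE match that departs from the consensus at no more than 1 of its 10 defined positions.
Lost CDH26, chr20:60078791-60078910: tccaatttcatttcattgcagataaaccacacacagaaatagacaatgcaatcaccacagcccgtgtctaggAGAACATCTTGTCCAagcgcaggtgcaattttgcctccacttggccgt
Lost PTPRO, chr12:15274821-15274940: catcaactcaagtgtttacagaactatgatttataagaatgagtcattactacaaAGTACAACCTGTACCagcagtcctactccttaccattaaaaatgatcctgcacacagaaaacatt
Lost JPH2, chr20:44187502-44187621: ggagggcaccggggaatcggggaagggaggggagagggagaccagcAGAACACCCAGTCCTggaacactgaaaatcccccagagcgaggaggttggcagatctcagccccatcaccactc
Lost RIPOR2, chr6:25006586-25006705: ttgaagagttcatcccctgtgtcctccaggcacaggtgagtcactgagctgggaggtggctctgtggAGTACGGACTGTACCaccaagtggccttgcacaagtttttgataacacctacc
Lost MYOM1, chr18:3153437-3153556: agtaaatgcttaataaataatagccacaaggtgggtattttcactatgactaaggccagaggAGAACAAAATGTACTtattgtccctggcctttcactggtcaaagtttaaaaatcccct
Lost SCARB1, chr12:124745968-124746087: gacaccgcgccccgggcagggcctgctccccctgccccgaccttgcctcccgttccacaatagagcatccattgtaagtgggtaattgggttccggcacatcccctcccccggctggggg
Of these, PTPRO and MYOM1 hold a GRE without mismatch in the 1 kb around the summit, with its center 2.5 bp and 9.5 bp from the summit. The SCARB1 window holds no GRE match, also over 1 kb.

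For comparison, these are windows of kept GBR from among the strongest of the siNS/siNS list, again with GRE matches in capitals.
Kept HIF3A, chr19:46301009-46301128: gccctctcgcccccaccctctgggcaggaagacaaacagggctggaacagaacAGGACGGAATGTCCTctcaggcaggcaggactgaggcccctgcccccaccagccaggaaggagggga
Kept OTOS, chr2:240251465-240251584: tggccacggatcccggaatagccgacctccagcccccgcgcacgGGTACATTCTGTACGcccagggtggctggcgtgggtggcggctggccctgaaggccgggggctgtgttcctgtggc
Kept PRR20G, chr3:127304376-127304495: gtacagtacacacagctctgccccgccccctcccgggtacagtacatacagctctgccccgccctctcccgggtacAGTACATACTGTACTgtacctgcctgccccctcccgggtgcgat
Kept FKBP5 intron, chr6:35728071-35728190: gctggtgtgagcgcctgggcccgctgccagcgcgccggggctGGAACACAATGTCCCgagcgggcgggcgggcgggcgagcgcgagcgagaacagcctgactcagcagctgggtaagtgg
The GRE of the HIF3A window was centered 0.5 bp from the summit. PRR20G had 3 GRE matches in 1 kb, of which 1 was without mismatch. Strong kept GBR and strong lost GBR thus both had a GRE close to the summit in most windows shown.

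Among new GBR, an intron of PPARGC1B and the region upstream of SOX9 are shown as examples with and without a GRE.
New PPARGC1B, chr5:149792027-149792146: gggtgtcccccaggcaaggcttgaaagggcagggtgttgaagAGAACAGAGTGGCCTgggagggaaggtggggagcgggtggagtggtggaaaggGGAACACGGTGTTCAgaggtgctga
New SOX9, chr17:71909246-71909365: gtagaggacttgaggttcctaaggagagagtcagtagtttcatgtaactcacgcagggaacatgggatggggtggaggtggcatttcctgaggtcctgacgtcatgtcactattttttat
The PPARGC1B window holds 2 GRE matches, whereas the SOX9 window holds none in 1 kb.

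Lost GBR were the weak ones of the siNS/siNS list, as measured by the −log10 p-value that the peak caller gave each peak. As these values were the basis on which peaks entered the lists, they are given as a description with no test. The median −log10 p-value was 16.3 (quartiles 14.3 and 20.0) at lost GBR and 35.8 (24.8 and 53.7) at kept GBR. Lost peaks were also narrower, with a median width of 404 bp against 497.5 bp. Of the 250 strongest siNS/siNS GBR 0 were lost, of the 500 strongest 11 were lost, and of the 1000 strongest 110 (11%) were lost. At the other end, 459 of the 500 weakest (91.8%) were lost. In 10 groups of equal size by strength the share lost went from 93.4% in the weakest group to 57.1% in the sixth, 32.2% in the seventh, 9.69% in the eighth and 0% in the strongest. The siBRM/siNS list reached down to a −log10 q-value of 7.26 and the siNS/siNS list to 8.88. The lists were called separately, and whether 1 of them was cut more strictly was not tested. With both lists cut at 8.88, 1542 GBR (59.7%) were lost and 15 (1.42%) were new.

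**Figure D1:**
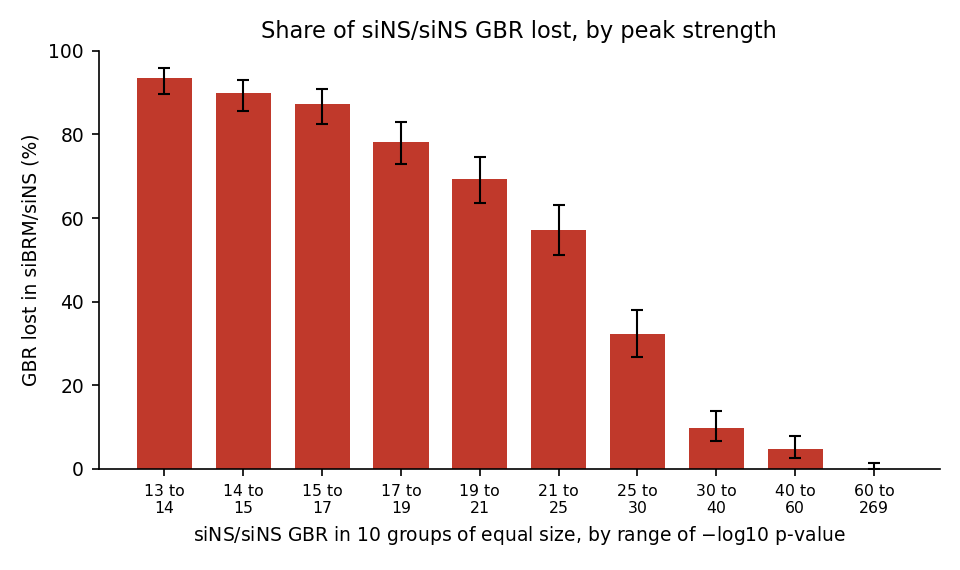
Share of siNS/siNS GBR lost in siBRM/siNS (percent, bars, with 95% Wilson intervals) in 10 groups of equal size ordered by the −log10 p-value of the siNS/siNS peak. The share was 93.4% in the weakest group and 0% in the strongest.

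The overlap rule decided the class of few lost GBR but of a larger part of the new ones. When each siBRM/siNS peak was widened by 500 bp on both sides, 1332 siNS/siNS GBR were still lost, against 1348 without widening. When peaks had to share at least 50% of both widths, 1375 were lost, while new GBR went from 40 to 71 (5.56%). The weakest kept GBR, in an intron of MLIP and 57.2 kb upstream of its main TSS, was number 2555 of the siNS/siNS list and number 719 of the siBRM/siNS list.

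The 10 strongest lost GBR were numbers 283 to 487 of the siNS/siNS list. The strongest of all lay in intergenic DNA 120.4 kb downstream of the transcription start site (TSS) of CDH26, a cadherin gene (chr20:60078524-60079125, −log10 p-value 56.3). This GBR was number 4236 of the siHic5/siNS list and was absent from the other 4 lists. Number 303 (54.4) lay in an intron of RERG, a RAS-like growth inhibitor, 47.6 kb upstream of the receptor phosphatase gene PTPRO (chr12:15274666-15275115). Unlike the CDH26 site, it was number 213 of the siHic5/siNS list and number 668 of the siBRM/siHic5 list. Number 357 (49.0) was the one promoter GBR among the 10, at 374 bp upstream of the TSS of JPH2, which encodes a junctophilin that ties the plasma membrane to the sarcoplasmic reticulum (chr20:44187320-44187762).

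Of the remaining strong lost GBR, one was 3.37 kb downstream of the TSS of ID1, an inhibitor of basic helix-loop-helix factors (chr20:31608181-31608931, number 383, −log10 p-value 46.8). Its only GRE match in 1 kb was 391.5 bp from the summit. Another lay 182 kb downstream of MYC, the growth-promoting transcription factor (number 345). In introns of their own genes were the GBR of RIPOR2, which restrains RHOA (chr6:25006411-25006868, number 404), and of MYOM1, a protein of the sarcomere (chr18:3153213-3153723, number 425). The others were intergenic and lay over 100 kb from TTC32 (chr2:19801320-19801788, number 361), SCARB1, the receptor for high-density lipoprotein (chr12:124745785-124746365, number 485), and CDH5, the endothelial cadherin (chr16:66223348-66223888, number 487). With the exception of the CDH26 GBR, the 10 were called in the siBRM/siHic5 list, at numbers 356 to 2209.

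The strongest kept GBR stayed at the head of both lists. An intron of HIF3A, which encodes a subunit of hypoxia-inducible factor, held the strongest GBR of the siNS/siNS list (chr19:46300647-46301458, −log10 p-value 269), and it was number 2 in siBRM/siNS. The GBR in the UTR of NFKBIA, the inhibitor that holds NF-κB in the cytoplasm, was number 3 and then number 5 (chr14:35403601-35404794, 229). Number 5 lay in an intron of FKBP5, a co-chaperone of GR, and was number 3 in siBRM/siNS (chr6:35727366-35728538, 218). The GBR 110.9 kb upstream of OTOS was number 4 and then number 1, and those near CDKN2AIPNL and PRR20G went from numbers 2 and 6 to numbers 11 and 9. Of the 100 strongest siNS/siNS GBR, 86 were also among the 100 strongest of siBRM/siNS.

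Over all 1234 kept GBR the order of strength was largely shared between the lists, with a Spearman rho of 0.828 across GBR, given as a description because the GBR of a list share its libraries. Summits lay a median of 14 bp apart, and 92.7% were within 50 bp. Kept peaks were narrower in the siBRM/siNS list at 1100 GBR and wider at 127, with median widths of 407 bp against 497.5 bp. Exceptions in rank were chosen after their values were seen. As the lists differ in length, siNS/siNS numbers were counted here among the 1234 kept GBR. A GBR in an intron of KIAA1217 was number 163 in siNS/siNS and number 1265 of the 1278 in siBRM/siNS (chr10:24007221-24007711). A GBR 0.884 kb from the TSS of KCNG1, a potassium channel subunit, went from number 294 to number 1188 (chr20:51023707-51024213). In the opposite direction, an intronic GBR of SELENOO went from number 1156 to number 454 (chr22:50213343-50213680), and one in an intron of SORT1, the sorting receptor sortilin, from number 1112.5 (a tie) to number 472 (chr1:109370624-109371270). Ranks are used here since the heights of separately made lists were not comparable.

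The 40 new GBR were weak peaks of the siBRM/siNS list, numbers 765 to 1278, with a median −log10 p-value of 12.6. The strongest lay 65.8 kb upstream of ENSG00000285542 (chr2:44102874-44103224, 16.3). PPARGC1B, a coactivator of oxidative metabolism, held the next one in an intron (chr5:149791942-149792283, 15.4). Other strong new GBR lay 212 kb upstream of SOX9, a master factor of cartilage (chr17:71909166-71909604, 13.8), 110.3 kb downstream of the chemokine receptor gene ACKR3 (chr2:236679977-236680311, 13.7), 26.2 kb upstream of SMIM14 (chr4:39664904-39665261, 13.6) and 52.7 kb downstream of the TSS of ALX4, a homeobox factor (chr11:44257370-44257673, 13.6). One near HHLA1 lay in an intron of KCNQ3 (13.8). The GBR nearest to ZNF33B was 723 kb from its TSS (chr10:41914816-41915237, number 949). It was called in siCHD9/siHic5 but absent from the siHic5/siNS, siBRM/siHic5 and siCHD9/siNS lists. Its summit window is largely repeats of GGAAT without a GRE match, and how reads aligned to this repeat was not tested. Of the 40, 27 (67.5%) were intergenic and 13 (32.5%) intronic. Most were also called elsewhere, 37 of 40 (92.5%) in siHic5/siNS and 31 (77.5%) in siBRM/siHic5. In none of the other 4 lists were 2 of them called. Of the 1238 kept GBR of the siBRM/siNS list, 1228 were called in siHic5/siNS and 1199 in siBRM/siHic5. New GBR were thus called in these lists less often than kept ones. The median GC content of new GBR in 1 kb was 43.4%, against 48.2% at the kept GBR of the same list. Among new GBR 26 of 40 (65%, 49.5 to 77.9) held a GRE match.

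A GRE was found in the 1-kb window of 817 of 1348 lost GBR (60.6%, 58.0 to 63.2) and of 898 of 1234 kept GBR (72.8%, 70.2 to 75.2). In windows of the same length 5 kb to either side of the siNS/siNS summits the share was 12.5%, so both classes were far above it. The odds ratio of lost against kept was 0.576 (0.488 to 0.680), with p = 7.03e-11 by a 2-sided Fisher's exact test over GBR and 8.43e-10 after Benjamini-Hochberg adjustment over 12 motifs. As each condition had 1 list, the test sets GBR against GBR and says nothing on the spread between replicates. Equal strength here and below means membership of the same strength group, within which strength still varied. When GBR were compared within 10 groups of equal strength in the siNS/siNS list, the common odds ratio was 0.877 (0.696 to 1.11), with p = 0.269 by the Cochran-Mantel-Haenszel test (n = 2582 GBR). By groups of strength in the siHic5/siNS list, which the rule did not use, it was 0.816 (0.666 to 1.00) with p = 0.0513 (n = 2500 GBR). In the 200 bp around the summit the common odds ratio was 0.900 (0.720 to 1.13) by siNS/siNS strength and 0.760 (0.625 to 0.924) by siHic5/siNS strength, the latter with p = 0.00620, or 0.0248 after adjustment over the 12 motifs (n = 2500 GBR). At equal strength a lower GRE content of lost GBR therefore passed the test in 1 of these 4 comparisons, and the 200-bp comparisons at equal strength were added after the data were seen.

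**Figure D2:**
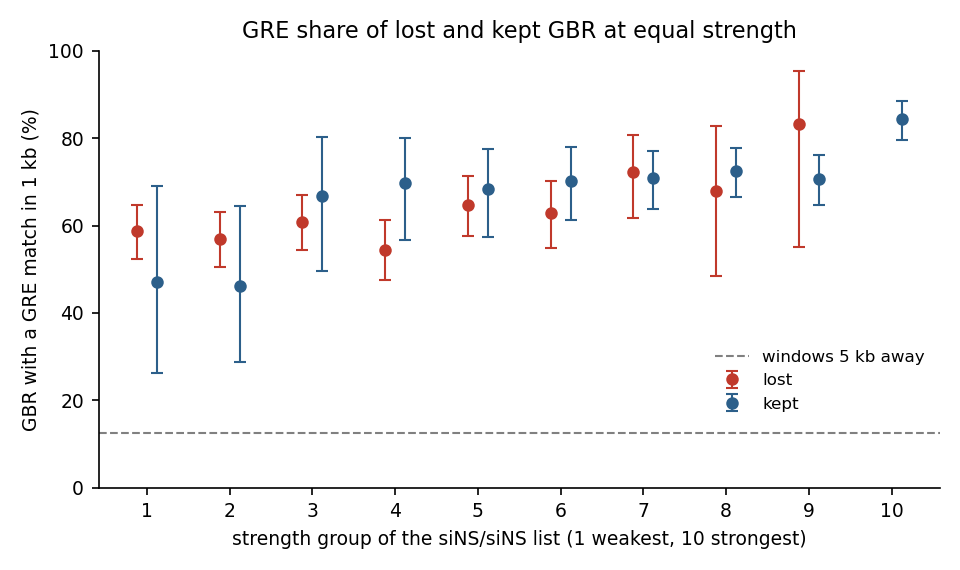
Share of GBR with a GRE match in 1 kb (percent, points, with 95% Wilson intervals) for lost and kept GBR within each of 10 strength groups of the siNS/siNS list, omitting classes of fewer than 10 GBR; the dashed line is the share in windows 5 kb away, 12.5%. Intervals of lost and kept GBR overlap in each group that has both.

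The quality and number of GRE matches were different in the same direction. A GRE without mismatch was present at 15.0% of lost and 22.0% of kept GBR, and 2 or more matches at 12.9% and 20.4%. In the 200 bp around the summit 53.2% of lost and 67.3% of kept GBR had a GRE. Where a GRE was present in 1 kb, its center lay within 50 bp of the summit at 78.3% (75.4 to 81.0) of lost and 85.2% (82.7 to 87.4) of kept GBR. The 15-base stretch most like the full palindrome was then scored by how many of its 12 hexamer bases matched. Of 308 GBR with 7 or fewer matching bases 64.3% (58.8 to 69.4) were lost, of 846 with 9 matching bases 49.2% (45.8 to 52.5), of 157 with 11 matching bases 40.8% (33.4 to 48.6), and of 23 with all 12 bases 30.4% (15.6 to 50.9). Strength moved with the match, its median −log10 p-value being 18.2 at 7 or fewer bases and 26.4 at 12, and its part in this order was not tested.

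**Figure D3:**
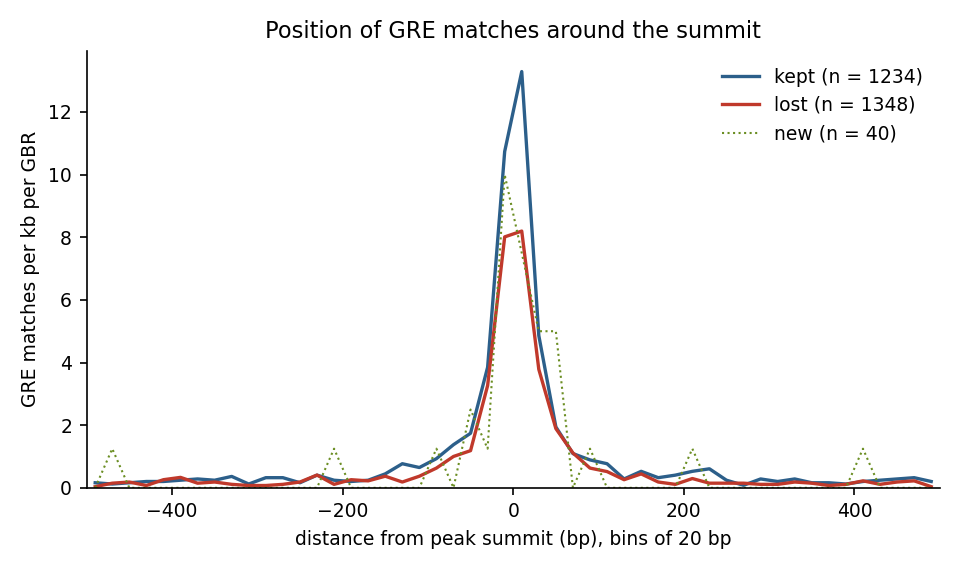
GRE matches per kb per GBR in bins of 20 bp against distance from the summit, for 1234 kept, 1348 lost and 40 new GBR. All 3 classes peak at the summit, at 13.3 for kept and 8.20 for lost GBR in the bins with the most matches; the curve of new GBR rests on few sites.

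For motifs of factors that often accompany GR, no difference between lost and kept GBR passed Fisher's exact test in the 1-kb windows. AP-1 sites (TGACTCA or TGAGTCA), bound by FOS and JUN proteins, were in 36.1% of both lost and kept windows, with an odds ratio of 1.00 (0.851 to 1.17), against 16.7% of windows 5 kb away. ETS sites (CAGGAAAC, CAGGAAAT, CAGGAAGC, CAGGAAGT, CCGGAAAC, CCGGAAAT, CCGGAAGC or CCGGAAGT), bound by the ETS family, were in 33.5% of lost and 35.7% of kept windows, with an odds ratio of 0.907 (0.771 to 1.07), Fisher's exact p = 0.246, against 27.1% of windows 5 kb away. Within groups of equal siHic5/siNS strength the odds ratio of AP-1 was 1.33 (1.09 to 1.62), p = 0.00444 (n = 2500 GBR), which was 0.0533 after adjustment over the 12 motifs. Within groups of siNS/siNS strength it was 1.17 (0.932 to 1.48). In the 200 bp around the summit, where 17.8% of lost and 17.6% of kept GBR had an AP-1 site and 11.7% and 10.7% an ETS site, both motifs were more frequent at lost GBR of equal siHic5/siNS strength. The common odds ratio was 1.45 (1.12 to 1.87) for AP-1, p = 0.00484, and 1.56 (1.15 to 2.10) for ETS, p = 0.00307, and both were 0.0248 after adjustment over the 12 motifs (n = 2500 GBR). At equal siNS/siNS strength the ratios in 200 bp were 1.01 (0.760 to 1.35) and 1.17 (0.833 to 1.64), which did not pass.

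Of the 9 other motifs 0 passed an adjusted p of 0.05 by Fisher's exact test, and 2 were below 0.05 before adjustment. These were NFY (CCAAT), at 72.9% of lost and 68.2% of kept GBR with 74.0% of distant windows and an adjusted p of 0.0565, and C/EBP (TTGCNNAA), at 43.1% and 38.4% with 39.3% of distant windows and an adjusted p of 0.0648. Both are frequent in any 1-kb window. RUNX (TGTGGT) was at 53.1% of lost and 56.4% of kept GBR, TEAD (CATTCCA or CATTCCT) at 45.5% and 45.7%, FOX (TGTTTAC or TGTTTGC) at 31.1% and 30.3%, SP1 (GGGCGG) at 27.7% and 27.6%, and NF-κB at 18.0% and 15.5%. CRE (TGACGTCA) and NFI were at under 1% of either class. All patterns were sought on both strands, and matches of different motifs could share bases. A match is a stretch of letters and does not show that the factor was bound.

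Of 5 features of genomic position, 1 differed between lost and kept GBR. The summit was within 1 kb of the TSS of a protein-coding gene at 55 lost (4.08%) and 53 kept GBR (4.29%), with an odds ratio of 0.948 (0.645 to 1.39), Fisher's exact p = 0.844. With TSS of genes of every biotype the ratio was 0.726 (0.555 to 0.949), with an adjusted p of 0.0513 by Fisher's exact test. Introns held 43.2% of lost and 41.1% of kept GBR, and intergenic DNA 52.0% and 54.0%. GBR over 100 kb from any such TSS made up 32.6% and 31.3%. Adjusted p over these features ranged from 0.540 to 0.844 for the 4 named so far. The fifth differed, in that 17.3% of lost GBR but 23.3% of kept GBR lay within 10 kb of another siNS/siNS GBR, with an odds ratio of 0.690 (0.568 to 0.837) and an adjusted p of 0.000927 by Fisher's exact test. Within groups of equal strength its odds ratio was 1.12 (0.839 to 1.50), p = 0.445 (n = 2582 GBR). Among chromosomes with over 50 GBR the share lost ranged from 37.9% (22 of 58) on chromosome 19 to 62.7% (32 of 51) on chromosome 18.

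Most lost GBR were called when Hic-5 was depleted. The siHic5/siNS list of 9533 GBR, in which Hic-5 but not BRM was targeted, overlapped 1276 of 1348 lost GBR (94.7%, 93.3 to 95.7) and 1224 of 1234 kept GBR (99.2%, 98.5 to 99.6). In the siBRM/siHic5 list of 3383 GBR, where BRM and Hic-5 were both depleted, 958 lost GBR (71.1%, 68.6 to 73.4) and 1195 kept GBR (96.8%, 95.7 to 97.7) were called. Of the lost GBR 61 (4.53%) were in none of the other 4 lists. The lists differ in their number of peaks and give no depth, so a call in one and not in another does not measure a change in occupancy.

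Loss after BRM depletion with Hic-5 present could then be set against BRM depletion without Hic-5, in 2 lists that share no library with the first pair. Among GBR of the siHic5/siNS list, 326 of 1276 lost GBR (25.5%) and 31 of 1224 kept GBR (2.53%) had no siBRM/siHic5 peak. The odds ratio was 13.2 (9.05 to 19.3), with p = 3.65e-69 by Fisher's exact test over GBR. It was 3.57 (2.34 to 5.44) within groups of equal siNS/siNS strength and 3.97 (2.63 to 6.00) within groups of equal siHic5/siNS strength, and the Cochran-Mantel-Haenszel p was 4.95e-10 and 5.79e-12 after adjustment over 2 lists. In the weakest of the 10 siHic5/siNS groups 58.4% of lost and 35.5% of kept GBR were absent, and in the fourth 17.4% and 2.11%. The siBRM/siHic5 list reached down only to a −log10 q-value of 14.2, against 8.91 for siHic5/siNS and 7.74 for siCHD9/siHic5. The part of this higher floor in the absences was not tested. By these calls, GBR that left the list in the presence of Hic-5 were more often absent in its absence too, also at equal strength.

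The same was seen with CHD9 in place of BRM. Of the same GBR, 642 of 1276 lost (50.3%) and 164 of 1224 kept (13.4%) had no siCHD9/siHic5 peak, an odds ratio of 6.54 (5.37 to 7.98), Fisher's exact p = 5.72e-91. Within the same strength groups it was 1.91 (1.50 to 2.43) by the siNS/siNS list and 2.16 (1.72 to 2.71) by the siHic5/siNS list. Whether the ratios for BRM and CHD9 differ was not tested. CHD9 depletion with Hic-5 present shares its control with the comparison described here, so only its own counts are given. The siCHD9/siNS list held 1415 GBR, from which 1327 of the 2582 siNS/siNS GBR (51.4%) were missing, and 158 of its GBR overlapped no siNS/siNS peak.

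**Figure D4:**
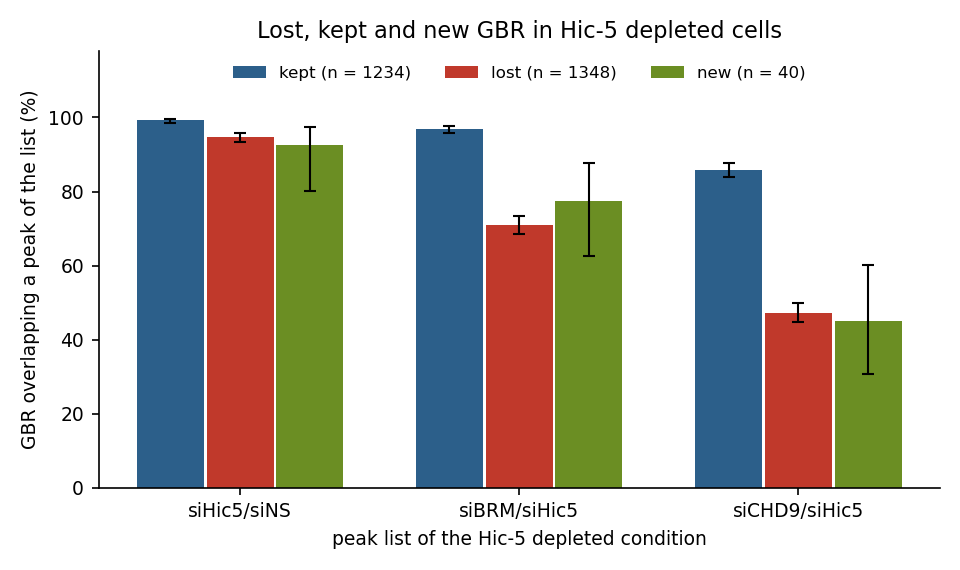
Share of kept, lost and new GBR that overlapped a peak of the siHic5/siNS, siBRM/siHic5 or siCHD9/siHic5 list (percent, bars, with 95% Wilson intervals). Lost GBR were called in 94.7%, 71.1% and 47.3%, kept GBR in 99.2%, 96.8% and 85.9%.

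Most GBR near 42 listed genes that glucocorticoids are known to induce were kept. The list was chosen with earlier results of these data known, so part of this outcome was known beforehand. It includes MSX2, IGFBP1, SCNN1A and SPINK13. At their closest GBR the study reported lower GR occupancy after CHD9 or BRM depletion, with the peaks still called. The 42 genes had 75 siNS/siNS GBR within 100 kb of a TSS, of which 24 were lost (32.0%, against 52.2% of all siNS/siNS GBR). These GBR were strong, with a median −log10 p-value of 38.2 where all siNS/siNS GBR had 21.2, and the part of strength in the lower share was not tested. Of the 31 genes with a GBR 14 kept all, 2 lost all and 15 had both kinds. Kept GBR closest to a TSS included those of PER1, a clock repressor (2.06 kb upstream, number 30 in siNS/siNS and 38 in siBRM/siNS), of DUSP1, a phosphatase that inactivates MAP kinases (1.34 kb upstream, 104 and 233), of MT2A, a metallothionein (0.235 kb upstream, 10 and 10), and of SCNN1A, a subunit of the epithelial sodium channel (0.757 kb upstream, 21 and 7). CDKN1A, the cell cycle inhibitor p21, had 1 GBR in its first kb, which was kept (802 and 580).

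Lost GBR of induced genes were weaker. ERRFI1, a feedback inhibitor of EGF receptor signaling, lost both of its GBR, the nearest 44.8 kb upstream (chr1:8070929-8071317, number 976), and this one was also absent from siBRM/siHic5. RGS2, which dampens G protein signaling, lost its only GBR, 98.7 kb downstream (number 2013). The promoter of MT1X held a lost GBR at 0.193 kb upstream (number 1294). TNFAIP3, the ubiquitin-editing brake on NF-κB, lost the GBR in its intron 6.24 kb downstream (number 1055). Of the 4 GBR of TGM2, a transglutaminase, 3 were lost, at numbers 1465, 1788 and 2206, and the kept one was number 625 in siNS/siNS and 1036 in siBRM/siNS.

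Loci with many GBR showed loss and retention side by side. FKBP5 had 9 GBR within 100 kb of its TSS, of which 8 were kept. Their numbers in the siNS/siNS list were 5, 14, 39, 64, 69, 238, 255 and 672, and in siBRM/siNS 3, 20, 39, 47, 105, 121, 292 and 881. The lost one, 89.7 kb upstream, was number 2058. DDIT4, an inhibitor of mTORC1, kept 5 GBR at numbers 13 to 374 and lost 2 at numbers 1236 and 2052, the first of them only 17.7 kb upstream and next to a kept GBR at 18.7 kb. KLF9, a zinc finger repressor, kept 2 and lost 2. At LIF, a cytokine of the interleukin-6 family, 4 of 6 GBR were lost, at numbers 819, 1845, 1956 and 2170, and the kept ones were numbers 51 and 140. At FKBP5, DDIT4, KLF9 and LIF every lost GBR stood below every kept one in the siNS/siNS order. TIPARP, an ADP-ribosyltransferase gene, was an exception, since its lost GBR were numbers 990 and 1922 and its kept GBR numbers 571 and 1082.

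**Figure D5:**
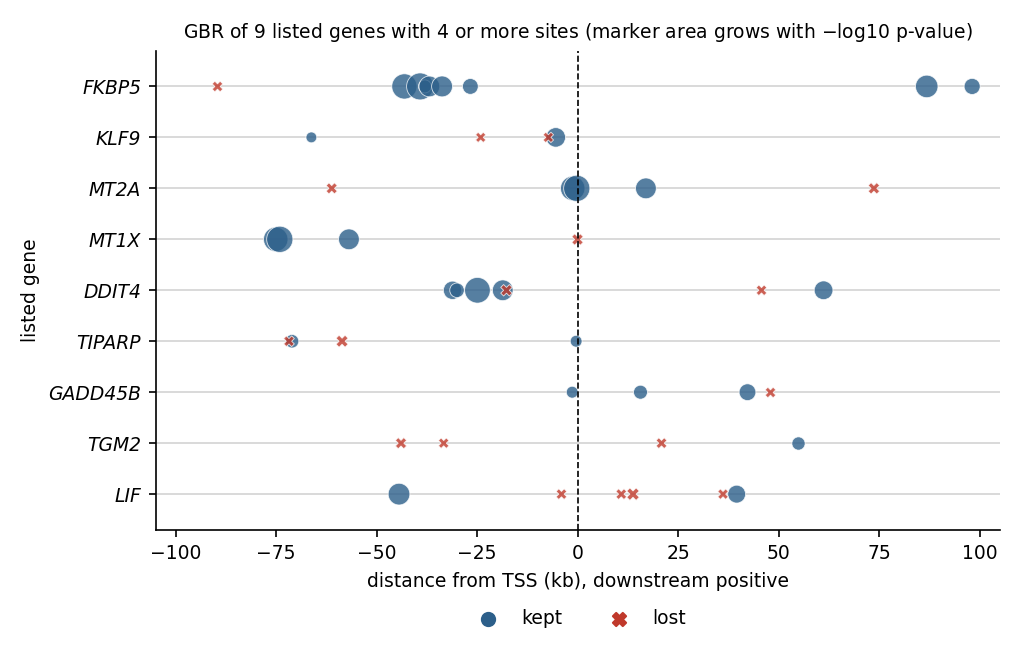
GBR up to 100 kb from the TSS at 9 listed genes, each with 4 or more siNS/siNS GBR, by distance from the TSS (kb, downstream positive); circles are kept and crosses lost GBR, and marker area grows with the −log10 p-value in siNS/siNS. At FKBP5 8 of 9 GBR were kept, and at LIF 4 of 6 were lost.

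Other gene groups had fewer GBR, and their shares lost are to be read against the 52.2% of all siNS/siNS GBR. Of 22 genes that restrain inflammation or belong to the NF-κB pathway, 12 had a GBR, and 12 of their 24 GBR (50%, near the 52.2% of all) were lost, with a median −log10 p-value of 23.0. ZFP36, which destabilizes cytokine mRNA, kept the GBR 2.91 kb downstream (number 24 in siNS/siNS and 16 in siBRM/siNS), whereas the MAP kinase phosphatase genes DUSP5 and DUSP6 lost theirs (nearest numbers 1933 and 1405). Of 25 focal adhesion and cytoskeleton genes, the compartment where Hic-5 is best known, 13 had a GBR and 10 of 15 GBR (66.7%, against 52.2% of all) were lost, with a median of 19.1. PXN, the paralog paxillin, lost an intronic GBR 2.93 kb downstream (number 2025), and integrin α5 (ITGA5) lost one 2.03 kb upstream (number 1520). VCL, encoding vinculin, kept an intronic GBR (136 and 282), and PTK2, encoding focal adhesion kinase, kept one 17.6 kb upstream (90 and 90).

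Of 25 genes of AP-1, ETS and RUNX factors 9 had a GBR, and 9 of 12 GBR (75%, against 52.2% of all) were lost, with a median −log10 p-value of 16.3. FOS, FOSB, FOSL2, ELK3, ETV4 and RUNX1 lost all of theirs, and ELF1 and ELK1 kept theirs. Among 24 SWI/SNF, CHD and GR coregulator genes 5 had a GBR and 2 of 8 GBR (25%, against 52.2% of all) were lost, of which 1 was near NCOA3, a coactivator of nuclear receptors. The kept ones included intronic GBR of ARID1B, a SWI/SNF subunit (956 and 406), and of CHD9 itself (1762 and 954). Among 23 osteoblast and bone matrix genes only 3 had a GBR. ALPL, alkaline phosphatase, kept its GBR (1037 and 996), COL1A1 lost one 8.89 kb upstream (2289), and MSX2, a homeobox factor that is also on the list of induced genes, kept 1 and lost 1. These groups held 4 to 24 GBR each, and for comparison 3410 of all 20046 protein-coding genes had a GBR this close. No new GBR lay this close to the TSS of any gene of the 6 lists. The lists hold few of the 20046 genes, and 17 of the 40 new GBR (42.5%) lay over 100 kb from any protein-coding TSS. The absence is therefore not read as a result about these genes.

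Of the 3410 genes with a siNS/siNS GBR within 100 kb of the TSS, all GBR were lost at 1463, all were kept at 1443, and 504 (14.8%) had both kinds. A single GBR was all that 2535 of these genes had, so these could not have both kinds. Of the 116 genes with 4 or more GBR 12 kept all and 4 lost all. These 4, named after their counts were seen, were the neighbors KLC2, RAB1B, CNIH2 and YIF1A, which share the same 4 GBR on chromosome 11. One lay in an intron of PACS1 (chr11:66189241-66189739, number 1224) and the other 3 lay together between CD248 and RIN1 (chr11:66324756-66325111, chr11:66326124-66326953 and chr11:66327738-66328165, numbers 2369, 738 and 1728). All 4 were called in siHic5/siNS, and in siBRM/siHic5 only number 2369 was absent. By contrast ERGIC1, close to DUSP1 on chromosome 5, kept all of its 5 GBR, and IL1R2, a decoy receptor for interleukin-1, kept all 4.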

How the data were processed

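Of 18 libraries, 12 ChIP libraries (2 per siRNA combination) and 6 inputs, reads were trimmed by the authors and aligned to GRCh38/hg38 using BWA. Alignments were filtered for duplicates and mitochondrial DNA, and MACS2 with the IDR framework gave 1 peak list per condition from pooled replicates. Versions and the IDR threshold are not given in the sources used here. The deposited lists give each peak a signal value, a −log10 p-value and a −log10 q-value from the authors' peak calling. The signal is fold enrichment in the peak format but CPM in the study, so heights were not used. One pooled list per condition leaves no replicate error, and the lists carry no depth. All peaks lay within the ends of the GRCh38 sequences.

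Overlaps, Wilson intervals, Fisher's exact tests, Cochran-Mantel-Haenszel ratios, logistic regression and motif searches were computed with Python 3.11.15 (SciPy 1.17.1, statsmodels 0.14.6, pysam 0.24.0) and tested on simulated data. Genes came from GENCODE 44. Named were the 10 lost, 6 kept and 8 new GBR strongest by −log10 p-value and the listed genes' GBR within 100 kb, the nearest first. Genes with 4 or more GBR and rank changes were added later. Members, lists and tests were chosen with earlier results of these data known. Alternatives changed the overlap rule, the cutoffs, the strength matching, the motif window and the TSS definition. Some results at single listed genes are not reported here.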

Additional observations from a re-analysis of the deposited data

How the results depend on the processing

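Of 98 recomputed values 65 were counted as unchanged. For an odds ratio this meant the same direction and side of the threshold. For a share lost or new it meant a value inside the Wilson interval of the main result. For the other motifs it meant the same count of calls. The share lost was 59.7% with both lists cut at the higher of their lowest −log10 q-values, 60.9% at a −log10 q-value of at least 20, 18.3% for the 1000 strongest GBR of each list and 20.3% with the siNS/siNS list cut to the length of the siBRM/siNS list, and the share new under these was 1.42%, 0%, 17.9% and 20.0%. With a reciprocal overlap of 50% the share new was 5.56%. Merging overlapping peaks first changed nothing in either list.

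The odds ratio of GRE lost its call at a −log10 q-value of at least 20 (0.802), for the 1000 strongest GBR (0.868), at equal list lengths (0.711), within siNS/siNS strength groups (0.877), within siHic5/siNS strength groups (0.816) and in the regression with GC content and rank (0.900). Fewer GBR entered the first 3, and the cause was not tested in any of these settings. The AP-1 ratio was not called, and at 0.9996 in the main setting it had no direction to reverse. It passed to the other side of 1 with reciprocal overlap (1.04), widening (1.00), a −log10 q-value of at least 20 (1.02), the 1000 strongest (1.16), siNS/siNS groups (1.17), siHic5/siNS groups (1.33), the regression (1.10) and the 200-bp window (1.02). So did ETS within siHic5/siNS groups (1.07) and in 200 bp (1.11), and promoter position at equal list lengths (1.23), within siNS/siNS groups (1.09) and within siHic5/siNS groups (1.02), none of them called. With TSS of every biotype the promoter ratio was 0.726 with an adjusted p of 0.0513. The 200-bp window within strength groups was added after seeing the data. By siHic5/siNS groups it gave calls for GRE (0.760), AP-1 (1.45) and ETS (1.56), each with an adjusted Cochran-Mantel-Haenszel p of 0.0248, and by siNS/siNS groups none (0.900, 1.01 and 1.17). The cause of this difference was not tested. Absence from siBRM/siHic5 (3.57 to 16.0) and from siCHD9/siHic5 (1.91 to 14.3) kept their calls throughout, except that the first had no ratio at a −log10 q-value of at least 20, where no kept GBR was absent. The 9 other motifs, an alternative set chosen after seeing the data, gave 0 calls each time.

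No paired analysis was possible because replicates were pooled before peaks were called, and for the same reason no replicate was left out. Depth limits which weak GBR enter a list, and the lists give none.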
